A study of Mus musculus with 32 samples.

Results

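8 genes of the smooth muscle contractile apparatus, Acta2, Actg2, Myh11, Mylk, Tagln, Cnn1, Tpm2 and Des, were followed through the first wave of spermatogenesis in germ cell preparations from juvenile C57BL/6J mice. They were chosen by name as genes of the peritubular myoid cell, and all 8 of 8 were found among the 20368 genes of the juvenile gene table. RNA-seq data were at hand from the cells of 28 male mice, with 3 mice at 8 days post-partum (dpp) and 5 mice at each of 10, 12, 14, 16 and 18 dpp. The study had sampled 5 mice at 8 dpp as well, but left out those samples that matched the others of that age poorly. It gave too few cells for library preparation as the likely reason. A further 4 samples held pachytene and diplotene spermatocytes enriched by sedimentation at unit gravity (STA-PUT), each pooled from 6 adult mice of 9 weeks. No mouse carried a mutation or a treatment. For the juvenile samples, seminiferous tubules were digested with Liberase and washed to remove interstitial cells. The cells were filtered through a mesh, and no sort or gradient against tubular somatic cells was described. The study counted the purity of each sample as germ cells among all DAPI-stained cells and described the germ cells as highly enriched. Levels are in TPM, a share of all transcripts that is corrected for transcript length, so levels of different genes can be set side by side. The depth of each library is unknown because read counts cannot be had from TPM, and errors are those between mice.

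Peritubular myoid cells are flat, contractile cells that wrap each seminiferous tubule and move sperm and fluid along it. They contract as other smooth muscle does, when myosin light chain kinase phosphorylates the regulatory light chain and the smooth muscle myosin heavy chain pulls on actin filaments. The genes of this apparatus are also used by the smooth muscle and pericytes of blood vessels, and many of them are controlled by serum response factor with its cofactor myocardin, through a short DNA element called the CArG box.

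The members were placed on mouse build GRCm38 with the GENCODE M21 annotation, and all of them are protein-coding. The thin filament actins are Acta2 (smooth muscle alpha actin, ENSMUSG00000035783, chr19:34241090-34255590, minus strand) and Actg2 (smooth muscle gamma actin, ENSMUSG00000059430, chr6:83512905-83536265, minus strand). The thick filament is represented by Myh11 (smooth muscle myosin heavy chain, ENSMUSG00000018830, chr16:14194535-14291372, minus strand) and by Mylk (myosin light chain kinase, ENSMUSG00000022836, chr16:34745210-35002420, plus strand). The actin-binding regulators are Tagln (transgelin or SM22 alpha, ENSMUSG00000032085, chr9:45929619-45936058, minus strand), Cnn1 (calponin 1, ENSMUSG00000001349, chr9:22099216-22109630, plus strand) and Tpm2 (beta tropomyosin, ENSMUSG00000028464, chr4:43514711-43523765, minus strand). Des encodes desmin, the intermediate filament of muscle (ENSMUSG00000026208, chr1:75360329-75368579, plus strand). Mylk and Des overlap antisense genes, and Tagln overlaps an antisense gene and the end of Pcsk7, so reads in those stretches could be shared if strand was not used. None of the 100-base windows of the 8 main transcripts occurred in a transcript of another gene, the actins included.

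The control region of the most abundant member is shown because Acta2 was the only one of the 5 members with a RefSeq promoter window (250 bases before to 50 bases after the start) that held a CArG-like sequence. The motif searched was 10 bases long, CC, then 6 bases of A or T, then GG, on both strands, with at most 1 mismatch allowed. The full motif was found in 1.63% of 32851 promoter windows and in 0 of the 5 members. A match with at most 1 mismatch was found in 21.1% of all windows and in 1 of the 5 members. Acta2 held 2 such matches on the minus strand of chromosome 19 of GRCm38.p6, at chr19:34255438-34255467 and chr19:34255388-34255417. GENCODE places both in the first, untranslated exon of Acta2-201, whose start lies upstream of the RefSeq start. The box is in capitals and its first base lies at -84 in the first sequence and -34 in the second, counted from the RefSeq start.
Acta2 box 1: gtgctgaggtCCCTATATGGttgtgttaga
Acta2 box 2: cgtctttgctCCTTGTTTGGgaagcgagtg
A match is a description of the letters and was not tested as a site of control.

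The 8 members were expressed in all 28 juvenile mice, and their order hardly changed from mouse to mouse. Acta2 was the highest of them in 28 of 28 mice, with a mean of 846 TPM, and it was at rank 122 among the 20368 genes by mean level. Tagln (mean 135 TPM) and Tpm2 (mean 131 TPM) followed, and these neighbours changed places, Tagln being at rank 2 in 20 mice and at rank 3 in 8. Myh11 (mean 114 TPM) was at rank 4 in 27 mice, Mylk (62.3 TPM) at rank 5 in 27 and Actg2 (35.5 TPM) at rank 6 in 27. Cnn1 (24.7 TPM) was at rank 7 and Des (14.7 TPM) at rank 8 in all 28. Acta2 alone made up 65.7% of the summed TPM of the 8 members at 8 dpp.

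Acta2 levels were steady from 8 to 10 dpp, were highest at 12 and 14 dpp, and were lowest at 18 dpp. Acta2 measured 834, 899 and 824 TPM in the 3 mice of 8 dpp. It measured 641, 930.1, 794, 881 and 1012 TPM in mice 1 to 5 of 10 dpp, and 939, 873, 918, 996 and 1233 TPM in those of 12 dpp. All 5 mice of 12 dpp were thus within or above the range of 8 dpp. At 14 dpp, where the mice are numbered 1, 2, 3, 6 and 7, the values were 802, 1029.7, 863, 1232 and 1400.1 TPM. At 16 dpp mice 1 to 5 had 593, 681, 742, 1105 and 839.6 TPM, and at 18 dpp they had 395, 361, 393, 734 and 751 TPM. Every mouse of 18 dpp lay below every mouse of 8 dpp. The mean was 852 ± 40.7 TPM in the 3 mice of 8 dpp and 527 ± 198 TPM in the 5 mice of 18 dpp, with the SD as error.

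Actg2, the gamma actin best known from enteric smooth muscle, had a lower level, and its highest 2 ages were again 12 and 14 dpp. Its levels were 25.5, 24.5 and 21.02 TPM at 8 dpp and 20.7, 27.2, 19.9, 26.2 and 34.7 TPM in mice 1 to 5 of 10 dpp. At 12 dpp they were 40.9, 36.8, 41.4, 41.4 and 57.4 TPM, and none of these overlapped the 10 dpp values. Levels of 34.3, 46.5, 43.4, 53.1 and 62.7 TPM followed at 14 dpp, in mice 1, 2, 3, 6 and 7. The spread was widest at 16 dpp, with 30.5, 25.3, 28.2, 71.6 and 40.0 TPM, where mouse 4 had the highest level of the series. At 18 dpp mice 1 to 5 had 22.6, 19.7, 21.2, 42.0 and 35.3 TPM, so mice 1 to 3 were within or under the 8 dpp range and mice 4 and 5 above it.

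Myh11, the motor of the thick filament, followed Acta2. Its levels were 107, 105 and 90.0 TPM at 8 dpp and 82.5, 93.5, 98.0, 113 and 129.9 TPM in mice 1 to 5 of 10 dpp. They were 118, 123, 122, 129 and 172 TPM at 12 dpp and 117, 149, 128, 161 and 205 TPM in mice 1, 2, 3, 6 and 7 of 14 dpp. All 10 of these values exceeded those of 8 dpp. At 16 dpp mice 1 to 5 had 90.8, 89.5, 107, 158 and 116 TPM, and at 18 dpp 67.9, 54.9, 59.8, 98.1 and 109 TPM. Mice 1 to 3 of 18 dpp were below the 8 dpp range, and mice 4 and 5 were within or above it.

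Mylk, which starts contraction by phosphorylating the myosin light chain, was the member whose level differed least between 10 and 12 dpp. Its level was 65.7, 64.3 and 62.1 TPM at 8 dpp. It was 56.2, 66.3, 66.3, 72.4 and 77.8 TPM at 10 dpp and 60.9, 67.6, 66.3, 73.0 and 85.8 TPM at 12 dpp, so both ages overlapped 8 dpp. The levels of mice 1, 2, 3, 6 and 7 of 14 dpp were 63.0, 76.7, 64.1, 80.9 and 91.8 TPM. They were 44.2, 46.9, 57.4, 70.7 and 55.8 TPM in mice 1 to 5 of 16 dpp and 38.0, 35.0, 33.5, 50.7 and 49.7 TPM in those of 18 dpp. Every mouse of 18 dpp was below every mouse of 8, 10, 12 and 14 dpp.

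The actin-binding regulators and desmin had their highest mean at 14 dpp too, with Des above and the other 3 below their 8 dpp means at 18 dpp. Tagln, an actin-bundling protein used as an early smooth muscle marker, had a mean of 117 ± 9.24 TPM in the 3 youngest mice (8 dpp, SD), then 167 ± 34.0 TPM over the 5 mice of 14 dpp and 105 ± 25.6 TPM over the 5 of 18 dpp. Tpm2, which lies along the actin filament, had means of 108 ± 3.10, 172 ± 29.0 and 94.99 ± 29.2 TPM at these ages. At 18 dpp its mice fell into separate ranges, 76.0, 74.6 and 70.6 TPM in mice 1 to 3 and 127 TPM in both mice 4 and 5. Cnn1, which binds actin and restrains the myosin motor, had means of 21.2 ± 2.88, 32.3 ± 6.22 and 18.6 ± 6.40 TPM. Des had means of 9.97 ± 2.14, 19.0 ± 3.41 and 11.9 ± 3.51 TPM, and was the member with the lowest level in every mouse.

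**Figure D1:**
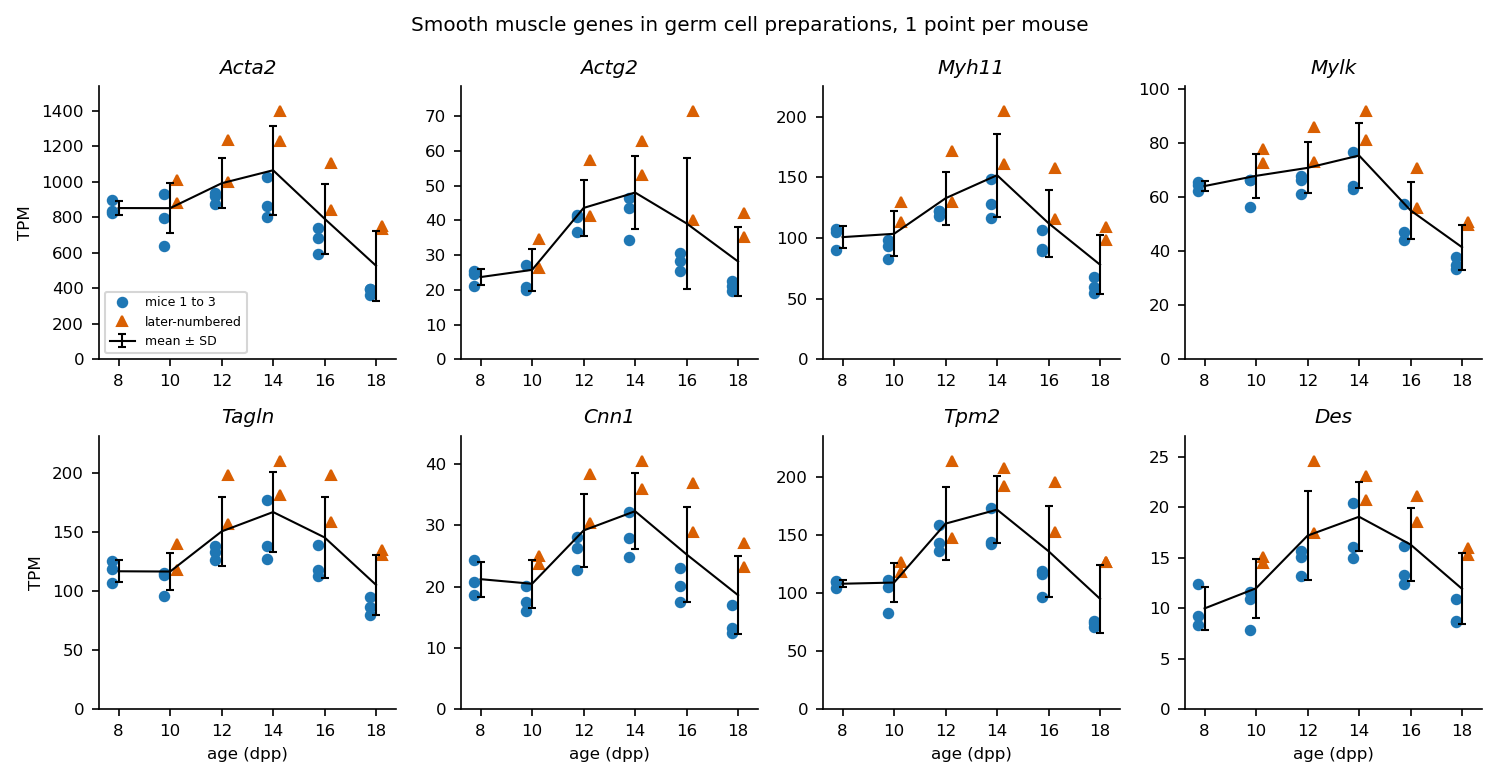
TPM of each smooth muscle gene (y axis, linear, from 0) against age in dpp (x axis), with 1 point per mouse, circles for mice 1 to 3, triangles for the later-numbered mice, and a line through the mean ± SD of each age. The means are highest at 14 dpp in all 8 panels, and the triangles lie above all circles at 14 and 18 dpp.

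The juvenile libraries held RNA of several somatic cell types. The 8 Sertoli markers summed to 1871 to 2085 TPM at 8 dpp and 699.8 to 966 TPM at 18 dpp, and the 6 fibroblast or interstitial markers to 440.0 to 1579.95 TPM over all juvenile ages. The summed pericyte or vascular smooth muscle markers (6 genes) lay between 80.2 and 197 TPM, with Rgs5 at a mean of 24.3 TPM, so peritubular and vascular sources of the members' RNA cannot be told apart. The 5 skeletal muscle markers summed to 2.16 to 7.56 TPM in juvenile mice, with means of 2.28 TPM for Myh1, 1.13 for Tnnt3, 0.505 for Acta1, 0.263 for Ckm and 0.0929 for Myh4. Myh1, the only one of them tested, was higher at 12 than at 10 dpp (log2 fold change 0.62, adjusted p = 0.0064, limma) and higher at 18 than at 8 dpp (0.89, adjusted p = 0.00015), and its part in the members' levels was not tested. In such bulk samples, fewer cells of a type and less RNA per cell cannot be told apart.

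The first comparison asked whether any of the 6 ages differed, with limma on log2(TPM + 1) and Benjamini-Hochberg adjustment over all 20368 genes. All 8 members passed, against 77.6% of all genes, so the share of members is near the background. The adjusted p-values ran from 1.2e-05 for Mylk to 0.0052 for Cnn1. Fold changes here are on the log2(TPM + 1) scale with a pseudocount of 1, which understates the change of low genes. By the study's methods each juvenile library came from 1 mouse, so the p-values measure the spread between mice.

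Between 8 and 18 dpp, the start and the end of the series, Acta2 and Mylk fell. The log2 fold change was -0.77 ± 0.22 (SE) for Acta2 (adjusted p = 0.0037) and -0.64 ± 0.15 for Mylk (adjusted p = 0.00050, limma with Benjamini-Hochberg adjustment). These 2 of 8 members compare with 68.2% of all genes called at this contrast, and with 36.3% called lower. The other 6 members did not pass, with -0.41 ± 0.21 for Myh11, -0.23 ± 0.23 for Cnn1, -0.23 ± 0.21 for Tpm2, -0.18 ± 0.19 for Tagln, 0.18 ± 0.26 for Actg2 and 0.21 ± 0.22 for Des. Their adjusted p-values lay between 0.079 and 0.55. Median-of-ratios scaling moved the median of all genes from -0.09 to 0.05, and quantile normalization moved it to -0.26. Relative to these medians Acta2 lay at -0.68, -0.64 and -0.39 and Mylk at -0.54, -0.51 and -0.44, and both were called under each scaling, joined by Myh11 under quantile normalization alone. The ratios to Acta2, given as a description, were higher at 18 than at 8 dpp, without overlap between the mice, for 6 of the 7 other members. Acta2 had the largest fall of the 8, so a ratio to it rises for any gene that fell less. The share of all genes with such a rise was not computed, so the count is no trait of these members. Actg2 stood at 2.78 ± 0.26% of the Acta2 level at 8 dpp (SD, n = 3) and at 5.40 ± 0.42% at 18 dpp (SD, n = 5), with no overlap between the mice of the 2 ages. Des stood at 1.16 ± 0.19% and 2.32 ± 0.28%, also without overlap. Tagln stood at 13.7 ± 0.65% and 20.8 ± 3.07%, Tpm2 at 12.7 ± 0.50% and 18.4 ± 1.55%, Cnn1 at 2.50 ± 0.42% and 3.58 ± 0.50% and Myh11 at 11.8 ± 0.98% and 15.1 ± 1.38%, each without overlap. Mylk, at 7.52 ± 0.36% and 8.27 ± 1.46%, was the only one of the 7 whose ranges overlapped.

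The count of members lower at 18 dpp differed with the mice counted. With mice 1 to 3 alone, 6 of 8 members were called lower at 18 than at 8 dpp. In that fit 70.8% of all genes were called in either direction, and the share called lower is not reported here. The log2 fold changes among these mice were -1.15 for Acta2, -0.83 for Mylk, -0.72 for Myh11, -0.55 for Cnn1, -0.55 for Tpm2 and -0.42 for Tagln, with adjusted p-values from 2.0e-07 to 0.0039 (limma). Actg2 (-0.15) and Des (-0.06) were not called, and their sign was opposite to that in all 28 mice. No later-numbered mouse of 8 dpp was among the samples, so the same contrast could not be made without mice 1 to 3. With the set of mouse numbers as a covariate the count was also 6, beside 69.3% of all genes called in either direction. For the neighbouring steps below, shares given for such alternative fits are likewise of calls in either direction.

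Of the 5 neighbouring steps, members were called higher at 1 and lower at the last 2. From 10 to 12 dpp 2 of 8 were called higher, beside 12.0% of all genes. From 14 to 16 dpp 1 of 8 was called lower, which is near the 11.3% of all genes. From 16 to 18 dpp 5 of 8 were called lower, beside 30.6% of all genes. From 8 to 10 dpp and from 12 to 14 dpp, 0 of 8 passed, where 1.2% and 0.172% of all genes were called by limma, and no member had an unadjusted p under 0.05 at either step. At these 2 steps every member's log2 fold change lay between -0.06 and 0.23.

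From 10 to 12 dpp Actg2 and Tpm2 rose. The log2 fold change was 0.75 ± 0.23 (SE) for Actg2 (adjusted p = 0.019) and 0.54 ± 0.18 for Tpm2 (adjusted p = 0.030, limma with Benjamini-Hochberg adjustment). These 2 of 8 stand beside 21.4% of all genes called, and 12.0% of all genes were called higher at 12 dpp. Cnn1 and Des had values of 0.49, Myh11 and Tagln of 0.36, Acta2 of 0.23 and Mylk of 0.06, and did not pass. The count was sensitive to single mice. It was 0 without mouse 1 or mouse 3 of 10 dpp or without mouse 5 of 12 dpp, and 1 without mouse 1 of 12 dpp. For this and the later steps, shares of all genes in fits without single mice are not reported here, so such counts lack a background. With the mouse set as a covariate it was 6, beside 22.8% of all genes, and with no level filter 0 in limma, beside 6.2%, with 5 members at an unadjusted p under 0.05. Among mice 1 to 3 alone it was 5, beside 19.6% of all genes, and among the later-numbered mice alone it was 0 in limma, beside 6.72%, with 5 members at an unadjusted p under 0.05.

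From 14 to 16 dpp, Mylk fell by 0.45 on the log2 scale (SE 0.13, adjusted p = 0.012, limma) and no other member passed, where 24.0% of all genes were called and 11.3% were lower. The other members had log2 fold changes between -0.44 (Myh11) and -0.20 (Tagln). The count was 0 without mouse 1 of 16 dpp, 2 without mouse 1 of 14 dpp and 5 without mouse 4 of 16 dpp, the mouse with the highest Acta2 and Actg2 levels of its age. With the mouse set as a covariate it was 5, beside 25.7% of all genes. Among mice 1 to 3 alone 6 members passed, beside 20.8% of all genes, and among the later-numbered mice alone 0 passed in limma, beside 12.6%, with 2 members at an unadjusted p under 0.05. The calls over all genes were 2594 higher and 2296 lower, with 2860 and 1454 under median-of-ratios scaling and 2407 and 3375 under quantile normalization, and Mylk was called lower in each.

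From 16 to 18 dpp 5 of 8 members fell, and the point estimates of the other 3 were negative too. The log2 fold change was -0.63 ± 0.19 for Acta2 (adjusted p = 0.0078), -0.54 ± 0.18 for Myh11 (0.013), -0.52 ± 0.18 for Tpm2 (0.016), -0.47 ± 0.16 for Tagln (0.018) and -0.40 ± 0.13 for Mylk (0.011), by limma with Benjamini-Hochberg adjustment. Des (-0.44), Cnn1 (-0.43) and Actg2 (-0.42) did not pass, with adjusted p-values of 0.056, 0.067 and 0.12. At this step 54.0% of all genes were called and 30.6% were lower, and the median of all genes was -0.11. With median-of-ratios scaling the median of all genes became 0.03, the split of all calls moved from 4775 higher and 6227 lower to 6193 higher and 3630 lower, and only Acta2 was still called among the members (-0.46, adjusted p = 0.034), beside 48.2% of all genes. The other 7 members stayed negative under that scaling, between -0.37 and -0.24. Relative to the median of all genes the 8 members lay between -0.52 and -0.29 in the first scaling and between -0.49 and -0.26 in the second. Under quantile normalization 6 of 8 members were called lower, with Des among them (adjusted p = 0.035, limma). In that fit the median of all genes was -0.17, and 4531 genes were called higher and 7462 lower. Relative to this median the 8 members lay between -0.57 and -0.27. The count was 2 without mouse 4 of 16 dpp, 2 without mouse 2 and 3 without mouse 3 of 18 dpp, and 8 without mouse 4 of 18 dpp. With only the 2 ages in the fit 0 members passed in limma, beside 44.0% of all genes, and 5 had an unadjusted p under 0.05. With no level filter 3 passed, beside 19.9% of all genes, and with the mouse set as a covariate all 8 did, beside 55.2%. All 8 members fell among mice 1 to 3 alone, where 57.3% of all genes were called in either direction. Among the later-numbered mice alone 0 passed, where limma called 1.33% of all genes and 5 members had an unadjusted p under 0.05.

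**Figure D2:**
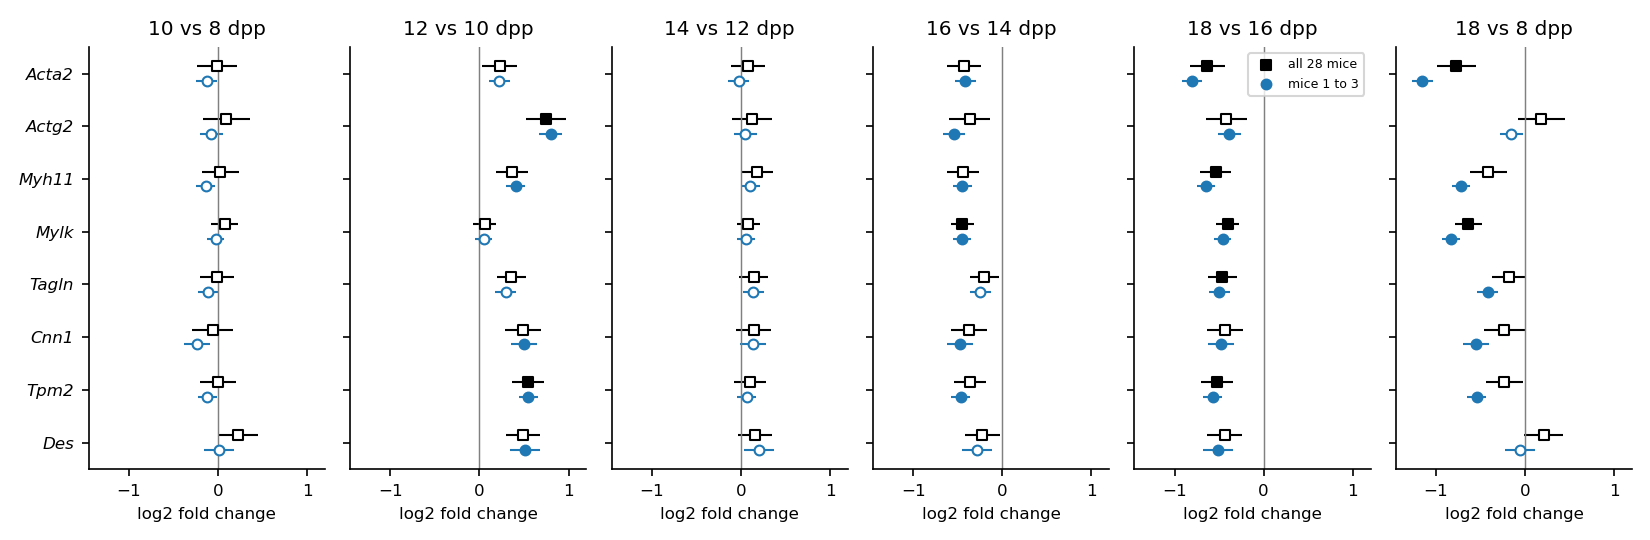
Log2 fold change on the log2(TPM + 1) scale (x axis, bars are standard errors) of each member (y axis) for the 5 neighbouring steps and for 18 against 8 dpp, with black squares for the fit of all 28 mice and blue circles for mice 1 to 3 alone, filled where the adjusted p was under 0.05. Filled symbols lie to the right of 0 at 12 against 10 dpp and to the left in the last 3 panels, and among mice 1 to 3 all 8 are filled at 18 against 16 dpp.

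Mice of the same age differed from each other in all 8 genes at once. The later-numbered mice (4 and 5, or 6 and 7 at 14 dpp) had higher levels than mice 1 to 3, and this held at each of the 5 ages where both sets were present. The labels give no meaning to the mouse numbers, so the sets are described by number only. With age as a covariate over 25 mice, 8 of 8 members were higher in the later-numbered mice, beside 2.81% of all genes called and 2.65% called higher. The log2 difference was 0.59 ± 0.10 (SE) for Actg2, 0.55 ± 0.07 for Cnn1, 0.52 ± 0.08 for Acta2, 0.50 ± 0.07 for Des and 0.49 ± 0.07 for Myh11. It was 0.48 ± 0.07 for Tpm2, 0.44 ± 0.06 for Tagln and 0.34 ± 0.05 for Mylk. The adjusted p-values lay between 0.00034 for Cnn1 and 0.00098 for Actg2 (limma, Benjamini-Hochberg). The count was 8 in every fit that left out one mouse, and the shares of all genes called in those fits are not reported here. The median log2 difference of all genes was 0.01, and of all calls 539 were higher and 34 lower, or 391 and 97 with median-of-ratios scaling, under which all 8 members were still called, beside 2.4% of all genes.

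The sets did not overlap in any member at 14 and 18 dpp, and overlapped in 1 or 2 members at the other ages. At 10 dpp the lower of the 2 later-numbered mice exceeded all of mice 1 to 3 in 6 of 8 members, as in 10.9% of all genes, and the set means stood in ratios of 1.19 (Mylk) to 1.47 (Des). At 12 dpp this was so in 6 members (13.9% of all genes), at 14 dpp in 8 (20.5%) and at 16 dpp in 7 (8.68%). At 18 dpp the sets did not overlap in 8 of 8 members, where 32.7% of all genes had both later-numbered mice above mice 1 to 3. The ratios of the means at 18 dpp ran from 1.41 for Mylk to 1.94 for Acta2. In a model with a separate set difference for each age, all 8 members passed at 18 dpp (adjusted p from 0.00012 to 0.0050, limma), beside 34.0% of all genes. At 10, 12, 14 and 16 dpp 0 passed, where only 0.0638%, 0.00982%, 0.00982% and 0.0% of all genes were called. Unadjusted p-values under 0.05 were found in 4, 4, 7 and 8 members at these ages. The test of whether the set difference itself changed with age passed for 0 of the 8 (1 at an unadjusted p under 0.05), beside 13.0% of all genes, with adjusted p-values of 0.10 for Acta2 to 0.82 for Des in limma, so a larger gap at 18 dpp was not established.

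**Figure D3:**
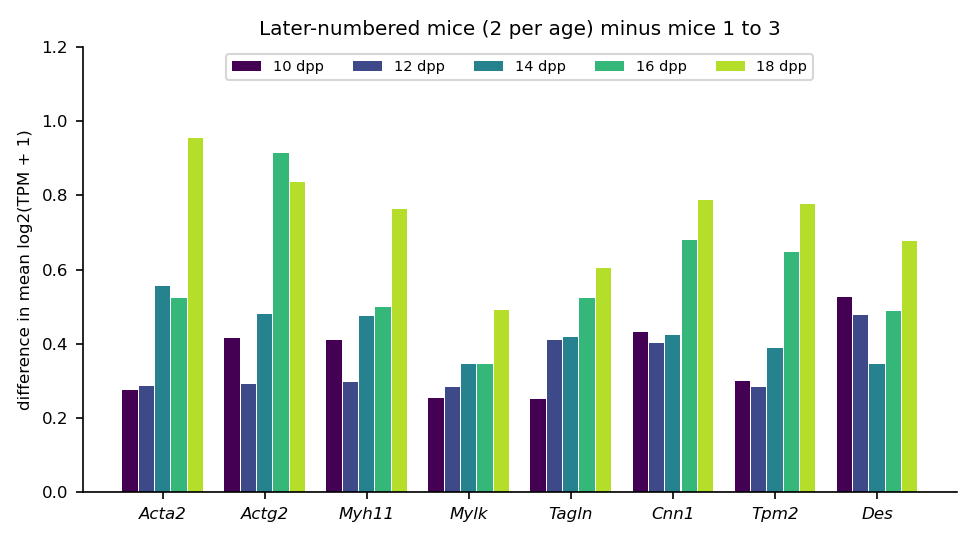
Difference in mean log2(TPM + 1) between the 2 later-numbered mice and mice 1 to 3 (y axis, bars from 0, drawn without error bars) for each member (x axis) at 10, 12, 14, 16 and 18 dpp. All 40 bars are above 0, and Acta2 at 18 dpp has the tallest, at 0.95.

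Other cells' markers moved with the sets, and their part in the result was not tested. Of the 6 pericyte or vascular smooth muscle markers 5 were higher in the later-numbered mice, of the 6 endothelial markers 5 and of the 6 fibroblast or interstitial markers 3. Among all genes 2.81% were called in this comparison and 2.65% were higher. Of the 8 Sertoli markers 0 were called, of the 6 Leydig markers 0, of the 6 macrophage markers 0 and of the 5 red blood cell markers 0, by limma with the same threshold, while 0, 4, 1 and 1 of them had an unadjusted p under 0.05. Of the 6 spermatogonium markers 1 (Kit) was higher, and of the 5 tested spermatocyte markers 0 were called and 0 had an unadjusted p under 0.05. At 18 dpp the summed pericyte list lay between 80.2 and 88.3 TPM in mice 1 to 3 and between 118 and 136 TPM in mice 4 and 5. The fibroblast list lay at 440.0 to 586 TPM and at 866 to 1019 TPM, and the endothelial list at 43.35 to 44.1 and 72.0 to 85.2 TPM. The Sertoli and spermatogonium lists were also higher in mice 4 and 5 of this age, at 926 to 966 against 699.8 to 723 TPM and at 557 to 584 against 409.7 to 425 TPM. The spermatocyte list overlapped, at 1162 to 1193 and 1135 to 1277 TPM.

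**Figure D4:**
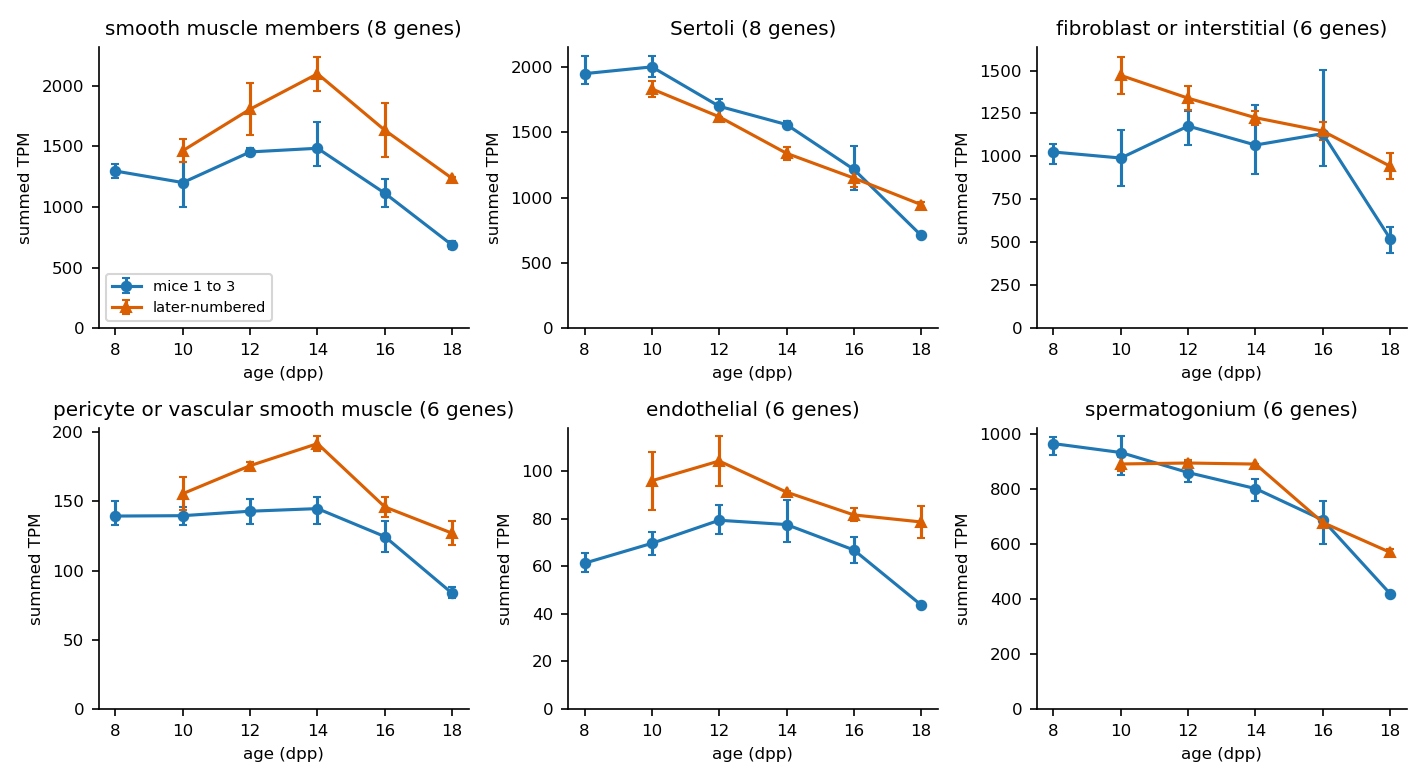
Summed TPM (y axis, from 0) against age in dpp (x axis) of the 8 smooth muscle members and of 5 marker lists, as the mean of each set of mice with bars from the lowest to the highest mouse. The line of the later-numbered mice is above that of mice 1 to 3 at all 5 shared ages for the members and for the pericyte, endothelial and fibroblast lists, and below it at 10 to 16 dpp for the Sertoli list.

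The members also rose and fell together from mouse to mouse. After each age's mean was removed, the log2(TPM + 1) of the other 7 members correlated with that of Acta2 over the 28 mice with Pearson's r from 0.873 (Des) to 0.959 (Tpm2) and Spearman's rho from 0.892 to 0.964. All 7 relations had a permutation p of 1e-05, the smallest that 100000 permutations within ages can give, and the adjusted p was also 1e-05. Mice 4 and 5 of 18 dpp lay farthest from the Acta2 median on the log scale with age means removed. When they were left out, r ran from 0.855 to 0.949. Within mice 1 to 3 (18 mice) r ran from 0.564 for Actg2 to 0.871 for Tpm2, and within the 10 later-numbered mice from 0.759 for Des to 0.984 for Tagln. The mice of a set share their numbering and all values of a mouse share 1 library.

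The 8 genes whose levels followed the mean of the members most closely, with age means removed, included genes of the same contractile system. Myl9, the regulatory light chain that Mylk phosphorylates, was first with r = 0.977 over the 28 mice and a mean level of 524 TPM. It was followed by Csrp1 (r = 0.964), a LIM protein of smooth muscle, and by Ptgis (0.963), the prostacyclin synthase. Adcy7 (0.960), an adenylate cyclase, came next. Col4a3 (0.959) and Col4a4 (0.958), chains of the type IV collagen of basement membranes, followed, and Tcf23 (0.958) and Cnn2 (0.956), a calponin of non-muscle cells, completed the 8. These correlations are over mice that share sets and libraries, and are given as a description.

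Related genes of the same apparatus were examined as lists. Of 22 contractile and contraction-signalling genes that are not members, 21 were tested and 13 were lower at 18 than at 8 dpp with 0 higher, where 68.2% of all genes were called and 36.3% were lower, and their median log2 fold change was -0.54 against -0.09 for all genes. The largest falls were in Vcl (-1.22), an adhesion protein that anchors actin, Flna (-1.11), an actin crosslinker, and in Ppp1r12b (-0.71), a myosin phosphatase subunit, and the GTPase gene Rhoa (-0.71). At the step from 16 to 18 dpp 20 of the 21 fell, where 30.6% of all genes were called lower, and with median-of-ratios scaling 9 of the 21 fell, where 17.8% of all genes were called lower. Of these 21 genes 10 were higher in the later-numbered mice and 0 lower, beside 2.65% of all genes called higher. Their median difference was 0.22, against 0.01 for all genes.

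Of 14 listed regulators of the smooth muscle programme, 9 were lower and 1 was higher at 18 than at 8 dpp, with a median log2 fold change of -0.53. The share called, 10 of 14, is near the 68.2% of all genes called at this contrast, and 36.3% of all genes were lower. With median-of-ratios scaling 7 of the 14 were lower, beside 29.4% of all genes. Smad3 (-1.70), a TGF-beta signal transducer, and Gata6 (-1.66), a transcription factor, fell most, followed by Srf (-1.26), the factor that binds CArG boxes, and Fhl1 (-1.19), a LIM protein. The one that rose was Mkl1 (Mrtfa in the annotation), an actin-sensing cofactor of Srf (0.37), and Myocd, the myocardin gene, was low at 3.40 TPM at 8 dpp and did not pass (-0.33, adjusted p = 0.28, limma), both named after their values were seen. Of the 14, 2 were higher in the later-numbered mice and 0 lower, beside 2.65% of all genes called higher. Many of these genes are used outside muscle, and Gata6, Srf and Smad3 are no markers of one cell type.

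Non-muscle and other-muscle relatives of the members, such as cytoplasmic actins, tropomyosins and calponins, were mostly lower at 18 dpp as well. Of 18 listed, 13 were tested, 10 were lower and 2 higher at 18 than at 8 dpp, and the median log2 fold change was -0.84, where 68.2% of all genes were called and 36.3% were lower. The largest falls were in Cnn3 (-2.43), Tpm4 (-1.55), Myh9 (-1.54) and Myh14 (-1.29), a calponin, a tropomyosin and 2 non-muscle myosin heavy chains. Of the 13, 3 were higher in the later-numbered mice, beside 2.65% of all genes. Other genes described in peritubular cells moved in the same direction, with 9 of 12 lower and 0 higher at 18 than at 8 dpp beside the same 68.2% and 36.3% of all genes, and with a median of -1.04. The share called is near that of all genes. The largest falls were in Gdnf (-1.82), the niche factor for spermatogonial stem cells, Ptch1 (-1.79) and Hhip (-1.52), targets and receptors of hedgehog signalling, and Fn1 (-1.32), fibronectin. Of the 12, 5 were higher in the later-numbered mice, beside 2.65% of all genes. Sertoli cells express several of these genes too, and 7 of their 8 markers were lower at 18 dpp with a median of -1.40. The median of the 8 members at this contrast was -0.23.

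The adult samples differed from the juvenile ones in 7 of 8 members. Acta2 measured 3.52, 2.60, 4.82 and 2.35 TPM in the 4 adult samples, against 361 to 1400.1 TPM in the 28 juvenile mice. Myh11 measured 0.52, 0.13, 0.92 and 0.61 TPM, Cnn1 0.33, 0.12, 0.42 and 0.08 TPM, and Des 0.26, 0.35, 0.41 and 0.24 TPM. Tagln (3.6, 3.3, 4.16 and 2.29 TPM) and Tpm2 (2.25, 1.02, 1.55 and 0.67 TPM) were as low. In these 6 genes the mean of the juvenile mice exceeded the adult mean by ratios of 40.5 (Tagln) to 255 (Acta2). Mylk, at 14.96, 16.6, 15.2 and 16.3 TPM, was below every juvenile mouse with a ratio of only 3.95. Actg2 was the exception, at 16.8, 12.4, 30.8 and 21.9 TPM, which overlapped the juvenile range of 19.7 to 71.6 TPM. Over all genes present in both tables, 47.7% had all 4 adult values below all 28 juvenile values.

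The members also stood in other proportions to each other in the adult samples. Acta2 was 57.6% of the summed level of the 8 members at 18 dpp and 7.26% in the adult samples, where the sum was 45.3 ± 9.19 TPM (SD over 4 samples) beside 905 ± 303 TPM in the 5 mice of 18 dpp. Actg2 stood at 631 ± 215% of the Acta2 level and Mylk at 518 ± 178% in the adult samples (SD, n = 4). In juvenile mice these ratios ran from 2.50 to 6.48% for Actg2 and from 6.40 to 9.70% for Mylk. The adult table was made from other samples and was not tested against the juvenile one. Adult samples also differed in age, in pooling and in enrichment, and these cannot be told apart. The 6 spermatid markers summed to 872 to 1189 TPM against 2.48 to 16.98 TPM in juvenile mice. RNA of spermatids and transcription of these genes in spermatocytes cannot be told apart here, and their part in the Actg2 and Mylk levels was not tested.

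**Figure D5:**
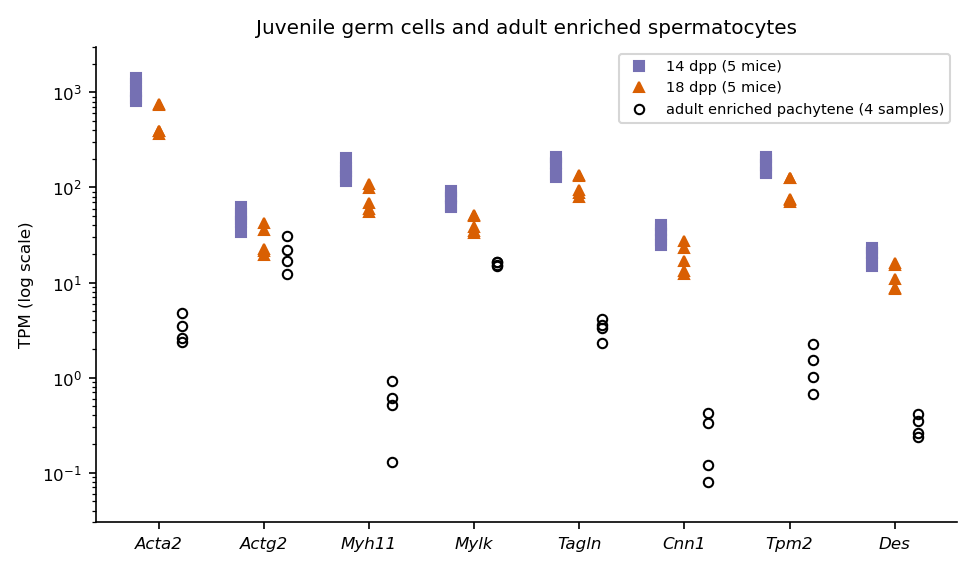
TPM on a log scale (y axis) of each member (x axis) in the 5 mice of 14 dpp, the 5 mice of 18 dpp and the 4 adult samples, 1 point per sample. The adult points of 6 genes lie under 5 TPM, Mylk lies near 16 TPM and Actg2 overlaps the 18 dpp points.

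The transcript table showed how the members' levels were divided among the listed transcripts. It listed 20 transcripts for the 8 genes, of which 3 were at 0 in all mice and 14 reached a mean of 1 TPM at some age. Acta2, Myh11, Tagln and Cnn1 had 1 transcript each. Mylk-201, the long coding transcript, held 98.4% of the Mylk level on average (95.4 to 99.6% over mice) and Des-201 held 96.7% of that of Des (85.1 to 100%). Tpm2-203 held 95.2% of Tpm2 (91.7 to 97.6%). Actg2-201 held 94.4% of Actg2 (75.9 to 100%), and Actg2-204, a shorter coding model, was above 0 in 12 of 28 mice with a share of up to 24.1%. Mylk, Des, Tpm2 and Actg2 thus each had 1 main transcript among those listed. For the 4 members with 1 listed transcript the share was fixed by the annotation. The only other transcript listed for Mylk was a retained intron, so other coding forms could not be seen.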

How the data were processed

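Poly-A RNA of 28 juvenile mice and 4 adult samples had been sequenced as 100-base paired-end reads. According to the submitters' notes and the study's methods, reads were aligned with Bowtie 1.0.0 to mm10 transcripts (Ensembl, NONCODE and 214 piRNA precursors) and quantified with RSEM 1.2.8. The deposited transcript table and adult gene table hold the authors' TPM values. The score in the deposited juvenile gene table was exp(log2(TPM + 1)) - 1, not TPM as assumed when the tests were planned, and was turned back to TPM, after which 20288 of 20368 genes lay within 0.2 TPM of their summed transcripts. Its substage column holds the authors' own result and was not used. Depth is unknown, since TPM keeps no counts.

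The 6 ages entered 1 limma model (version 3.58.1, R 4.3.3) of log2(TPM + 1), whose prior variance depended on the mean level, with Benjamini-Hochberg adjustment over the 20368 genes of at least 3 TPM in 1 mouse or more, with calls at an adjusted p under 0.05. The later-numbered mice were compared with mice 1 to 3 with age as a covariate. The scripts were checked on simulated data. Correlations used 100000 permutations within ages (Python 3.11.15, scipy 1.17.1). Names and coordinates came from GENCODE M21 on GRCm38, and promoter windows from RefSeq on GRCm38.p6. Other pseudocounts, filters, scalings, sets of mice and the omission of each mouse were tried as alternatives. Named genes are the 8 members, at most 4 genes per list by the largest called change from 8 to 18 dpp, markers, and the 8 genes most alike to the members' mean. The members and lists were chosen with earlier results of these data known.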

Additional observations from a re-analysis of the deposited data

Results flagged for a closer look

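In groups of 4 or 5 samples, a sample was picked out where its gap to the nearest other sample was large for the range of its group by Dixon's criterion. Of 48 groups (8 members in 5 ages and the adult samples), 2 were picked out, and chance alone picks out about 1 in 20. Both were mouse 5 of 12 dpp, with Actg2 at 57.43 TPM, where the gap was 0.775 of the range, and Myh11 at 171.57 TPM, where it was 0.797. The 8 dpp mice, 3 in number, were not examined in this way.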

How the results depend on the processing

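Counting error could not be estimated from TPM, the adult values come from a separate table, and mouse numbers do not have a stated meaning. The calls in all 8 members for any age and for the later-numbered mice held in every alternative except the later-numbered mice alone. In that fit 5 of 8 differed among ages. Its share of all genes called for any age is not reported here, so the 5 cannot be set against the background. With all juvenile mice in the fit, 77.6% of all genes were called for any age. Other counts moved. From 8 to 18 dpp 6 members were called, against 2, among mice 1 to 3 alone or with the mouse set as a covariate, and 3 with quantile normalization. From 10 to 12 dpp (2 called) the count was 0 with no level filter, 5 among mice 1 to 3, 6 with the covariate and 0 among later-numbered mice. From 14 to 16 dpp (1 called) it was 6 among mice 1 to 3, 5 with the covariate and 0 among later-numbered mice. From 16 to 18 dpp (5 called) it was 3 with no level filter, 1 with median-of-ratios factors and 6 with quantile normalization. It was 8 among mice 1 to 3, 8 with the covariate, 0 among later-numbered mice and 0 with only the 2 ages in the fit. Leaving out single mice gave 2 to 3 calls from 8 to 18 dpp, 0 to 3 from 10 to 12 dpp, 0 to 5 from 14 to 16 dpp and 2 to 8 from 16 to 18 dpp. The shares of all genes called in those fits are not reported here, so these counts cannot be set against the background. Apart from fits with fewer mice or more genes tested, the cause was not tested.

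The direction turned in 6 single values, none of them called. Actg2 from 8 to 18 dpp was -0.15 among mice 1 to 3 and -0.053 with the covariate, and Des was -0.0616 among mice 1 to 3. Mylk from 10 to 12 dpp ranged from -0.0121 to 0.11 when single mice were left out, and was -0.00538 without mouse 1 of 10 dpp and -0.0121 without mouse 5 of 12 dpp. With the mouse number as a replicate block, counts were 6 from 8 to 18 dpp, 6 from 10 to 12 dpp, 5 from 14 to 16 dpp and 8 from 16 to 18 dpp, and Actg2 from 8 to 18 dpp was -0.053. The shares of all genes called in that fit are not reported here, so these counts cannot be set against the background. The numbers do not pair the mice: 3 of 65 same-number pairs correlated above 0.1, and 6 of 28 mice correlated best with their own number.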
